A study of Homo sapiens with 6 samples.

Results

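The mRNA levels of 10 alpha and beta tubulin genes were described after treatment of MDA-MB-231 cells with SCH, an aqueous extract of the herb *Salvia chinensis* Benth. The members were taken by gene name from the deposited FPKM tables, as TUBA1A, TUBA1B, TUBA1C and TUBA4A for alpha tubulin and TUBB, TUBB2A, TUBB2B, TUBB3, TUBB4B and TUBB6 for beta tubulin, and were matched to the raw counts by gene identifier. They make up 10 of the 58735 genes in the tables. MDA-MB-231 is a human triple-negative breast cancer (TNBC) cell line, labelled wild type and grown in RPMI-1640 with fetal bovine serum according to the labels. The paper's methods name DMEM as the medium of this line instead. Cells of the vehicle group received the vehicle for 24 h, and cells of the SCH group received SCH at 100 mg/l for 24 h, with 3 biological repeats in each group. Poly-T purified mRNA was sequenced on an Illumina HiSeq instrument, and the counts on genes summed to 20291379, 18714240 and 18334857 in the vehicle samples and to 16836369, 17979434 and 18414924 in the SCH samples. The line is a single model cultured at a single dose and time, and the composition of the extract was not part of these measurements.

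Alpha and beta tubulin fold with the help of the chaperonin CCT and dedicated cofactors, pair into a dimer, and add to the ends of microtubules, the filaments that carry the mitotic spindle and intracellular transport. The human genome holds several genes, called isotypes, for each of the subunits, and their proteins are most alike in the core and differ mainly in a short acidic tail at the C terminus. Tubulin synthesis is also regulated by the tubulin already present, since ribosomes that begin a tubulin chain are recognised by TTC5 through the first residues of the nascent protein, which leads to decay of the mRNA.

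The ends of the coding sequences are shown first, because the 3′ end codes for the tail, in which most of the beta isotypes differ, and the 5′ end for the stretch on which this autoregulation acts. The last 60 bases of the principal coding sequence (GENCODE release 29, 5′ to 3′) of TUBA4A and the beta tubulin genes, with the stop codon in capitals, were as follows.
TUBA4A: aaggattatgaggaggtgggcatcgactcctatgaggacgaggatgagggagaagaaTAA
TUBB: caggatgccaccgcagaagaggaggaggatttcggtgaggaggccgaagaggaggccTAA
TUBB2A: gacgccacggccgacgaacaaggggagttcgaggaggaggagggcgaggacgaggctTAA
TUBB2B: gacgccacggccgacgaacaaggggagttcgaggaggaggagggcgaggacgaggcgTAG
TUBB3: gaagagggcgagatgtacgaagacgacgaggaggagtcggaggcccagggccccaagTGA
TUBB4B: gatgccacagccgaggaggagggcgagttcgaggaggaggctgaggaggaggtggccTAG
TUBB6: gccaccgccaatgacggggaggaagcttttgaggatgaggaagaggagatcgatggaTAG

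Compared position by position without gaps, TUBB2A and TUBB2B differed at 2 of these 60 bases. TUBB and TUBB4B, the most abundant beta tubulin mRNAs in these cells, differed at 27 in the same comparison. Their coding sequences have 1335 and 1338 bases and their printed ends are shifted against each other. The 27 includes this shift and is not an aligned count. Aligned over their whole length, TUBB and TUBB4B were 84.4% identical. Over the whole coding sequence, TUBB2A and TUBB2B were 98.1% identical, TUBA1A and TUBA1B 97.2%, and TUBA1B and TUBA1C 96.8%. TUBA4A was the most distant alpha gene, at 84.4% identity to TUBA1A, and the alpha genes shared 54.9% to 57.6% of aligned positions with the beta genes. The first 24 coding bases, with the first 4 codons in capitals, had the following forms in members that rose or fell.
TUBA1A: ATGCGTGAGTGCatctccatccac
TUBA1B: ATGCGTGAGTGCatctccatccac
TUBB: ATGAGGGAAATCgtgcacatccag
TUBB4B: ATGAGGGAAATCgtgcacttgcag
TUBB2A: ATGCGCGAGATCgtgcacatccag
The first 4 codons were the same in TUBA1A, which rose, and in TUBA1B and TUBA1C, which fell. They were likewise the same in TUBB, which fell, and in TUBB4B, which rose. The first 4 codons code for the same residues in all alpha members and for the same residues in all beta members. The codons of TUBB2A differ only in bases that leave the residues unchanged. The comparison therefore cannot bear on which members rose or fell.

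The question put to the data was how the mRNA of each tubulin isotype differed between SCH-treated and vehicle-treated cells. Of the members, 6 rose, 3 fell and 1 did not pass the threshold, an adjusted p under 0.05 in edgeR's quasi-likelihood test on the counts with Benjamini-Hochberg adjustment over all 14736 genes tested. TUBA1A, TUBB2A, TUBB2B and TUBB3, isotypes best known from neurons, each rose by about 1 on the log2 scale, and TUBB4B and TUBB6 rose by less. TUBB fell by 0.69, TUBA1B by 0.48 and TUBA1C by 0.25 on the log2 scale. All 10 members passed the filter on low counts. SCH changed a large part of the transcriptome, since 58.7% of all tested genes passed the same threshold, 29.3% raised and 29.4% lowered, so that passing it is not particular to the tubulin genes. The size of change of TUBA1A, TUBB2A, TUBB2B and TUBB3 was above that of 91% to 92% of the tested genes, that of TUBB above 81%, and that of TUBB6 above 33%. The median log2 fold change was 0.21 over the members and -0.0034 over all tested genes. The plot of counts by sample shows the values, and the plot of fold changes shows their intervals.

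**Figure D1:**
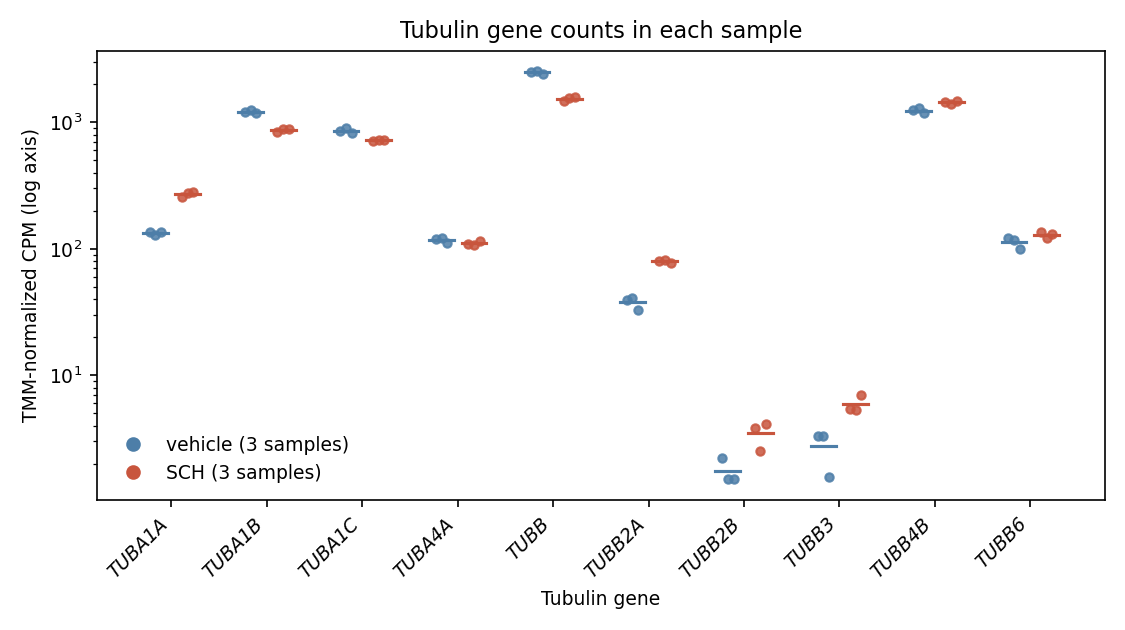
CPM (TMM-normalized counts, log axis) of the 10 tubulin genes in the 3 vehicle (blue) and 3 SCH (red) samples, with a point for each sample and a bar at the group mean. The groups do not overlap in 8 of the 10 genes, with TUBB, TUBA1B and TUBA1C lower after SCH and TUBA1A, TUBB2A, TUBB2B, TUBB3 and TUBB4B higher, and they overlap in TUBA4A and TUBB6.

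TUBA1A, on chromosome 12 (chr12:49184796-49189324, minus strand, GRCh38), codes for an alpha tubulin that is abundant in the developing nervous system. Its normalized CPM (counts relative to the size of the library, adjusted with TMM factors) were 136, 129 and 136 in the vehicle samples and 258, 278 and 282 in the SCH samples. Every SCH sample was thus far above every vehicle sample. The means were 133 ± 3.99 and 273 ± 12.9 CPM (SD, n = 3 each). The log2 fold change was 1.03 with an SE of 0.051 and a 95% interval of 0.93 to 1.14 (edgeR, adjusted p = 5.88e-14).

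TUBA1B lies on the same chromosome and strand (chr12:49127782-49131397) and codes for the alpha tubulin that most cell lines express. It had 1212, 1243 and 1181 CPM in the vehicle samples and 844, 890 and 880 CPM in the SCH samples. All SCH samples were below all vehicle samples, the reverse of TUBA1A. The mean went from 1212 ± 31.4 to 872 ± 24.2 CPM (SD, n = 3 each), and the log2 fold change was -0.48 with an SE of 0.045 (edgeR, adjusted p = 4.21e-09).

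TUBA1C, a further widely expressed alpha tubulin, lies on the opposite strand (chr12:49188736-49274603), and its range overlaps that of TUBA1A. It had 846, 895 and 829 CPM in the vehicle samples and 708, 722 and 726 CPM in the SCH samples, again without overlap and lower after SCH. Its log2 fold change of -0.25 (SE 0.046, edgeR adjusted p = 4.91e-05) was smaller than that of TUBA1B. The 3 genes of this cluster on chromosome 12 therefore did not move together, with 1 higher and 2 lower after SCH.

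TUBA4A (chr2:219249711-219278170, minus strand) codes for an alpha tubulin that, unlike most, is made without the C-terminal tyrosine that enzymes remove and restore. The CPM values were 120, 121 and 110 in the vehicle samples and 110, 108 and 115 in the SCH samples. The groups overlapped, with vehicle sample 3 lying among the SCH samples. The log2 fold change was -0.08 with a 95% interval of -0.19 to 0.03 (edgeR, adjusted p = 0.212), and without vehicle sample 3 it was -0.12 (adjusted p = 0.0381, over a range of 0.0381 to 0.725 across the alternatives). Changes below -0.19 or above 0.03 on the log2 scale lay outside the interval.

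**Figure D2:**
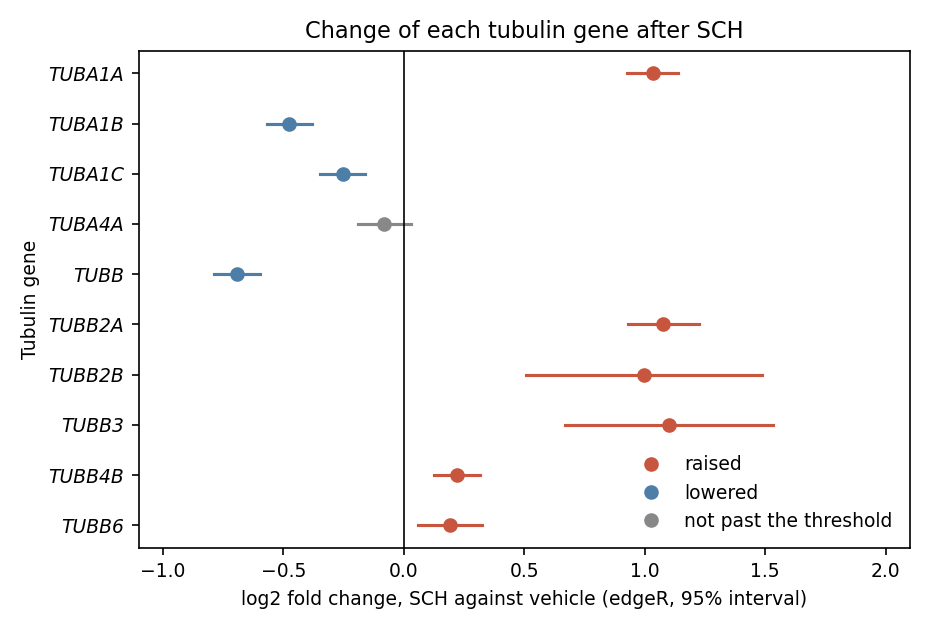
Log2 fold change of each tubulin gene, SCH against vehicle, from edgeR's quasi-likelihood fit (points) with 95% intervals (lines), coloured by whether the gene passed the threshold upwards (red), downwards (blue) or not (grey). TUBA1A, TUBB2A, TUBB2B and TUBB3 lie near 1, TUBB lies lowest at -0.69, and the interval of TUBA4A spans 0.

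Among the beta tubulins, TUBB (chr6:30720201-30725426, plus strand), the class I isotype of most proliferating cells, was the most abundant in the vehicle group. It had 2499, 2537 and 2416 CPM in the vehicle samples and 1475, 1553 and 1587 CPM in the SCH samples. The vehicle samples were all far above the SCH samples. The means were 2484 ± 62.3 and 1539 ± 57.5 CPM (SD, n = 3 each), and the log2 fold change was -0.69 with an SE of 0.046 and a 95% interval of -0.79 to -0.60 (edgeR, adjusted p = 9.12e-12).

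TUBB4B (chr9:137241213-137243707, plus strand), a broadly expressed isotype that is also prominent in cilia, went the other way. It had 1241, 1289 and 1176 CPM in the vehicle samples and 1445, 1408 and 1469 CPM in the SCH samples, all of which were higher. The log2 fold change was 0.22 (SE 0.047, edgeR adjusted p = 2.66e-04).

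TUBB2A (chr6:3153669-3157526, minus strand) codes for a class II beta tubulin that is abundant in brain and also expressed elsewhere. It had 39.6, 40.8 and 32.6 CPM in the vehicle samples and 79.6, 81.6 and 77.2 CPM in the SCH samples. The lowest SCH sample was well above the highest vehicle sample. The mean rose from 37.7 ± 4.41 to 79.5 ± 2.18 CPM (SD, n = 3 each). The log2 fold change was 1.08 with an SE of 0.071 (edgeR, adjusted p = 8.23e-12).

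TUBB2B (chr6:3224261-3231730, minus strand), the neighbouring class II gene, was expressed at a far lower level. It had 43, 27 and 27 raw counts in the vehicle samples and 67, 47 and 79 in the SCH samples. Its normalized values did not overlap, and the gap between vehicle sample 1, at 2.20 CPM, and SCH sample 2, at 2.52 CPM, was small. The log2 fold change was 1.00 with an SE of 0.236 (edgeR, adjusted p = 8.86e-04). Windows of 100 bases that occur in both class II genes made up 47.2% of the distinct windows of TUBB2A transcripts and 38.9% of those of TUBB2B, so reads could be divided between the pair in a way that was not tested, and their separate values are uncertain to that extent.

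TUBB3 (chr16:89921392-89938761, plus strand), the class III isotype that is widely used as a marker of neurons and also occurs in some carcinoma cells, had 65, 60 and 28 raw counts in the vehicle samples and 95, 99 and 133 in the SCH samples. In CPM these were 3.33, 3.34 and 1.57 against 5.45, 5.31 and 6.99. The groups did not overlap, vehicle sample 3 was the lowest and SCH sample 3 the highest. The log2 fold change was 1.10 with an SE of 0.209 (edgeR, adjusted p = 8.81e-05), and it was 0.83 without vehicle sample 3. A readthrough gene, AC092143.1, shares 35.8% of the exonic bases of TUBB3 on the same strand. This percentage is taken over all 4430 exonic bases of TUBB3, where its principal transcript has 1769. AC092143.1 had a count of 1 in SCH sample 2 and of 0 in the other samples. Whether reads on the shared bases were counted for TUBB3 or left out was not tested, and the TUBB3 values are uncertain to that extent.

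TUBB6 (chr18:12307669-12344320, plus strand), the class V isotype, had 122, 117 and 99.4 CPM in the vehicle samples and 135, 122 and 130 CPM in the SCH samples. SCH sample 2 lay at the level of vehicle sample 1, so the groups overlapped. Its log2 fold change was 0.19 with an SE of 0.064 (edgeR, adjusted p = 0.0129). This is the least firm of the 9 calls, since the log2 fold change was 0.11 without vehicle sample 3 (adjusted p = 0.071) and 0.17 without SCH sample 1 (adjusted p = 0.0501), with adjusted p between 3.27e-04 and 0.071 across the alternatives. In 8 of the 10 members the groups did not overlap, beside 62.4% of all tested genes. The change reached at least 1 on the log2 scale in TUBA1A, TUBB2A and TUBB3, and TUBB2B lay just under it, beside 8.77% of all tested genes that were changed by at least that much.

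Levels were compared between isotypes on the FPKM scale, which divides counts by gene length. In the vehicle group the order of the mean FPKM was TUBB (715), TUBB4B (566), TUBA1B (328), TUBA1C (179), TUBA1A (37.7), TUBA4A (27.8), TUBB6 (26.5), TUBB2A (21.1), TUBB2B (0.77) and TUBB3 (0.60). Neighbours in this order did not overlap between their samples, except TUBA4A with TUBB6 and TUBB2B with TUBB3. In the SCH group the order began with TUBB4B (663 FPKM), followed by TUBB (445 FPKM), TUBA1B (237 FPKM), TUBA1C (151 FPKM), TUBA1A (77.4 FPKM) and TUBB2A (44.7 FPKM). On this scale TUBB and TUBB4B had thus changed places at the head of the order, which rests on the longer gene length of TUBB (3359 against 2111 bases), since in CPM TUBB stayed above TUBB4B in every SCH sample. TUBB2A had passed TUBB6 (30.5 FPKM) and TUBA4A (26.4 FPKM). TUBB2B (1.55 FPKM) and TUBB3 (1.30 FPKM) stayed last and again overlapped, so that on this scale they remained far below the other beta tubulins. Both share much sequence with other genes, and TUBB3 counts are divided by 4430 bases where its principal transcript has 1769. How far counting and length lower their values was not tested.

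Shares of the summed FPKM of a subunit need no scaling between samples and describe which isotypes made up the mRNA pool. In the beta pool, TUBB held 53.7%, 53.2% and 54.5% in the vehicle samples and 36.4%, 38.3% and 37.9% in the SCH samples. TUBB4B held 42.4%, 43.0% and 42.2% in the vehicle samples and 56.8%, 55.2% and 55.8% in the SCH samples. By FPKM, TUBB was therefore ahead in every vehicle sample and TUBB4B in every SCH sample, and with the length of the principal transcript the order was the same. Without length, TUBB stayed ahead in the SCH samples as well, with 46.9%, 49.0% and 48.5% of the beta counts against 46.0%, 44.4% and 44.9% for TUBB4B. TUBB2A made up 1.58% ± 0.132 of the pool with vehicle and 3.77% ± 0.17 with SCH (SD, n = 3 each). TUBB6 held 1.99% ± 0.155 and 2.57% ± 0.137, while TUBB2B and TUBB3 each held at most 0.152% of the pool in any sample, also after their rise. Without length, the difference between the groups was 1.13 percentage points for TUBB6 in place of 0.58, and 0.11 points for TUBB3 in place of 0.06.

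In the alpha pool, TUBA1A held 6.71%, 6.18% and 6.88% in the vehicle samples and 15.4%, 15.8% and 16.1% in the SCH samples. TUBA1B held 57.4%, 57.2% and 57.4% in the vehicle samples and 48.1%, 48.6% and 47.9% in the SCH samples. The difference for TUBA1A was 9.16 percentage points and that for TUBA1B -9.11 points, whereas TUBA1C stayed near 31.3% ± 0.444 with vehicle and 30.7% ± 0.39 with SCH, with overlapping samples. A share that moves in a pool moves the others with it, so these differences are not independent of each other. Of the 10 shares, 9 did not overlap between the groups, and each of these had p = 0.1 in an exact two-sided permutation test (0.111 after Benjamini-Hochberg adjustment over the 10 shares), the smallest p that 3 samples against 3 can give.

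**Figure D3:**
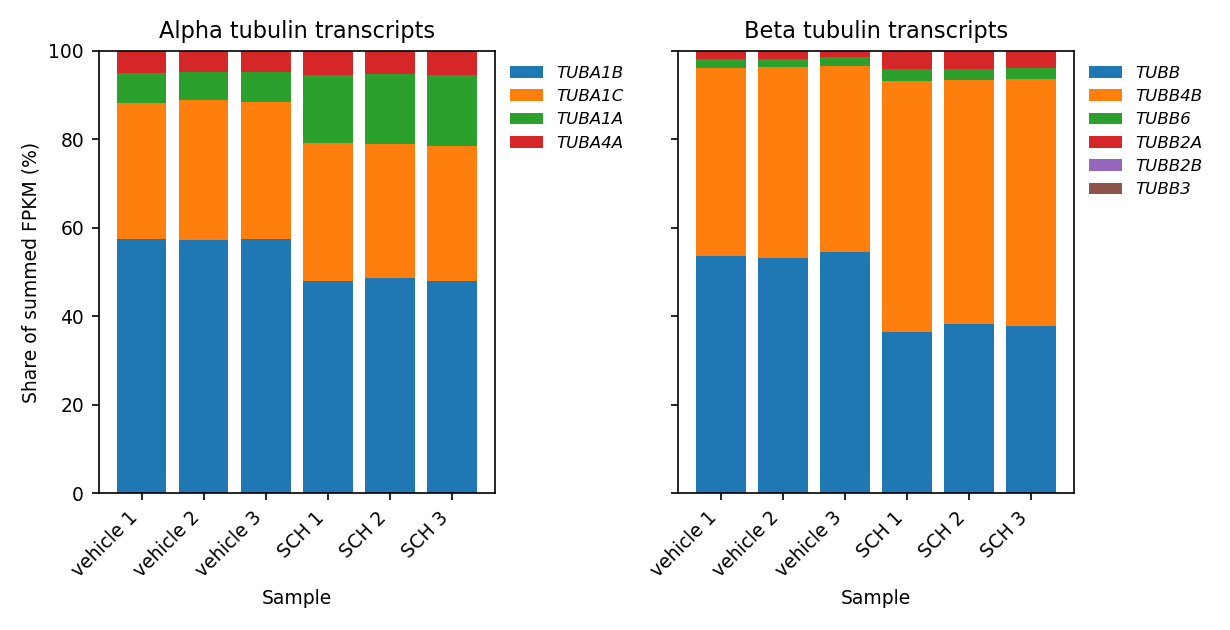
Share of each isotype (percent) in the summed FPKM of the 4 alpha tubulin genes (left) and of the 6 beta tubulin genes (right) in each of the 6 samples. In the SCH samples TUBA1A takes 15.4% to 16.1% of the alpha pool in place of 6.18% to 6.88%, and TUBB4B in place of TUBB is the largest part of the beta pool.

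The pools as a whole were lower after SCH. The summed alpha FPKM was 571, 588 and 556 in the vehicle samples and 479, 498 and 497 in the SCH samples, and the summed beta FPKM was 1340, 1373 and 1275 against 1175, 1173 and 1208. The FPKM scale itself was lower in the SCH samples, by a mean of -0.10 on the log2 scale, and these sums include it. Neither pool overlapped between the groups (exact permutation p = 0.1 each, the smallest possible). Entered as a single row in the edgeR fit, the summed counts had a log2 fold change of -0.23 for alpha (SE 0.045, adjusted p = 1.03e-04) and -0.28 for beta (SE 0.045, adjusted p = 1.27e-05). Summed per kilobase of gene length with the same TMM factors, the log2 difference was -0.23 for alpha and -0.17 for beta, so which pool fell by more depends on length. The 10 genes together held 0.597% ± 0.0158 of all counts with vehicle and 0.535% ± 0.0103 with SCH (SD, n = 3 each). The ratio of alpha to beta FPKM was 0.426, 0.429 and 0.436 with vehicle and 0.408, 0.424 and 0.412 with SCH (exact permutation p = 0.1). The vehicle samples were all higher, by a small margin, and the direction of this ratio turned when gene length was left out, with a log2 difference of 0.04 in place of -0.05. In these bulk samples, fewer cells of a kind and less RNA per cell cannot be told apart.

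Reads can also fall on near-identical copies of these genes, so the other rows named TUBA or TUBB were counted. Of 48 such rows, 30 had no count in any sample and 3 were tested. The processed pseudogene TUBBP1, which shares sequence with TUBB, had 347, 279 and 344 counts in the vehicle samples and 146, 168 and 210 in the SCH samples. It fell like TUBB, with a log2 fold change of -0.89 (SE 0.113, edgeR adjusted p = 4.49e-07), and whether its reads came from TUBB was not tested. TUBAP2, a pseudogene of the TUBA1 genes, had 50, 28 and 65 counts against 23, 28 and 30 (log2 fold change -0.82, SE 0.275, adjusted p = 0.0139). TUBA3D, a testis-enriched alpha tubulin, had 13, 16 and 20 counts against 9, 8 and 4 (log2 fold change -1.21, SE 0.418, adjusted p = 0.0166). TUBB1, the isotype of platelets, had 7, 10 and 9 counts against 0, 3 and 5 and was not tested. TUBB8 had between 0 and 5 counts in a sample, TUBAL3 between 0 and 4, and TUBA3C, TUBA3E, TUBA4B, TUBA8 and TUBB4A had at most 2. The 10 members held at least 99.58% of the counts on all tubulin rows in every sample, and the edgeR fold changes of the summed counts were -0.23 and -0.28 with the other rows added.

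Sequence shared with any other gene was counted for each member. Of the 100-base windows of a gene's transcripts, 48.9% occurred in another gene for TUBB2A, 42.4% for TUBB2B, 29.7% for TUBB3, where all lay in the readthrough gene, 13.5% for TUBA1B, 9.34% for TUBA1A, 6.81% for TUBA1C, 3.8% for TUBB, 2.09% for TUBB4B, 0.89% for TUBA4A and 0% for TUBB6. Genes on the opposite strand covered 36.6% of the exonic bases of TUBA1B, 20.3% of TUBB6, 18.1% of TUBA4A, 16.0% of TUBB, 14.4% of TUBA1C, 7.93% of TUBB2B and 5.87% of TUBB4B. Overlaps between members were not counted here, and the ranges of TUBA1A and TUBA1C overlap on opposite strands. The strand setting of the counting is not given in the sources used here. Reads of such partners therefore cannot be told apart from those of the tubulin genes. The partners of TUBA1B and TUBA1C, AC011603.2 and AC125611.3, had at most 1 count in any sample, and that of TUBB, AL662797.1, had 2 to 19. FAM166A, opposite TUBB4B, had 1 to 7 counts. AFG3L2, opposite TUBB6, and STK16, opposite TUBA4A, had log2 fold changes of 0.02 (adjusted p = 0.725) and 0.03 (adjusted p = 0.701). PSMG4, opposite TUBB2B, had 404, 411 and 355 counts with vehicle and 196, 226 and 243 with SCH (log2 fold change -0.81, adjusted p = 8.74e-08), lower after SCH where TUBB2B was higher.

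The regions around the start sites were compared for TUBA1A and TUBA1B, because these neighbours code for nearly the same protein and moved in opposite directions. The RefSeq promoter windows (GRCh38.p14, minus strand, 250 bases before to 50 after the start, 5′ to 3′) are at chr12:49189031-49189330 for TUBA1A and at chr12:49131346-49131645 for TUBA1B, and capitals mark CCAAT or its reverse complement ATTGG.
TUBA1A: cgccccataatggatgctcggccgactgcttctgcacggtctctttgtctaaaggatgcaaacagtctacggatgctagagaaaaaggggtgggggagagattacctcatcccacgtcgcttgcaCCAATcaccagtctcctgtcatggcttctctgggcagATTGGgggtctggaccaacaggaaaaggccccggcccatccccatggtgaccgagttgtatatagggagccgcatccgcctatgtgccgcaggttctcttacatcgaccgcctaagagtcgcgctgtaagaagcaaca
TUBA1B: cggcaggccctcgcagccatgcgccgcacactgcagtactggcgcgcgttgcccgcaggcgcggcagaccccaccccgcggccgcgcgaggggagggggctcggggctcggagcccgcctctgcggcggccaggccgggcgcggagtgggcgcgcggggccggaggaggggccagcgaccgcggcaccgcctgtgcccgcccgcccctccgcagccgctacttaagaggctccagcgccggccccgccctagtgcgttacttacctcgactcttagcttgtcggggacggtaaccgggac

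The window of TUBA1A held 2 CCAAT matches on either strand and that of TUBA1B none, beside 34.6% of 35116 promoter windows that held at least 1. All 10 members matched to the RefSeq table, with 15 windows between them, of which 9 held CCAAT. These 9 windows belonged to 7 members, some of which have several windows. The 7 members were TUBA1A, TUBB2B, TUBB3, TUBB4B and TUBB6, which rose, and TUBA1C and TUBB, which fell. TTTGAA, or TTCAAA on the other strand, was found in 4 of the 15 windows, all of TUBA1C or TUBB4B, beside 15.2% of all windows. These matches of letters describe the windows and say nothing of whether a factor binds there.

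The genes that act on tubulin were described in lists written with earlier results of these data known. Of 21 genes for tubulin folding tested, 3 rose, 14 fell and 4 did not pass the threshold (81.0% changed, beside 58.7% of all tested genes), with a median log2 fold change of -0.24. All 8 subunits of the chaperonin CCT were among those that fell, by 0.20 to 0.45 on the log2 scale. This split of the list was made after the values were seen. Of all tested genes, 29.4% were lowered, and the median size of change among genes past the threshold was 0.46. CCT5, a CCT subunit, went from 673, 659 and 655 CPM in the vehicle samples to 472, 485 and 499 CPM in the SCH samples (log2 fold change -0.45, SE 0.045, edgeR adjusted p = 1.05e-08). PFDN2, a subunit of prefoldin, which hands nascent tubulin to CCT, went from 128 ± 8.52 to 91.7 ± 6.41 CPM (SD, n = 3 each), and its log2 fold change was -0.48. PDCL3, a cofactor of the chaperonin, had a log2 fold change of -0.38. Of the 6 prefoldin subunits, 2 fell and 4 did not pass, with log2 fold changes from -0.48 to 0.02. The tubulin-specific cofactors, ARL2 and PDCL3 were mixed, with 3 raised and 4 lowered of 7.

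Of the 3 genes for autoregulation of tubulin mRNA, SCAPER, the adaptor that brings the deadenylase to TTC5, had a log2 fold change of -0.41 (SE 0.128, edgeR adjusted p = 0.00846). TTC5 itself, which binds the nascent chain, had 22.6, 23.3 and 25.1 CPM with vehicle and 24.5, 25.1 and 25.9 CPM with SCH, and CNOT11, a subunit of the deadenylase, had a mean of 55.6 ± 0.868 and 56.2 ± 1.92 CPM (SD, n = 3 each). Both overlapped between the groups, with log2 fold changes of 0.09 (adjusted p = 0.332) and 0.02 (adjusted p = 0.82).

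Of 13 genes for gamma, delta and epsilon tubulin and the gamma-tubulin ring, from which microtubules start, 4 rose, 6 fell and 3 did not pass (76.9% changed), with a median log2 fold change of -0.18. The largest changes of this list were those of the ring subunit TUBGCP3 (-0.61), the gamma tubulin TUBG2 (0.59) and the ring component MZT2B (-0.52). Of 17 genes for modification of tubulin, 5 rose, 4 fell and 8 did not pass (52.9% changed, below the 58.7% of all tested genes), with a median of 0.0007. TTLL11, a polyglutamylase, fell from 17.5 ± 1.54 to 8.68 ± 0.673 CPM (log2 fold change -1.01), the deacetylase SIRT2 rose from 42.3 ± 3.58 to 74.7 ± 3.08 CPM (0.82), and the polyglutamylase TTLL7 had a log2 fold change of 0.74.

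Of the 16 genes for proteins that bind along the microtubule lattice, 13 were tested, 4 rose, 3 fell and 6 did not pass (53.8% changed, again below the share of all tested genes), with a median log2 fold change of -0.12. MAP1A, a stabiliser best known from neurons, had 2.62, 2.34 and 1.91 CPM in the vehicle samples and 10.3, 11.8 and 8.26 CPM in the SCH samples. No SCH sample came near the vehicle samples, and its log2 fold change of 2.13 (SE 0.169, edgeR adjusted p = 2.00e-10) was larger than that of any tubulin member. TPX2, a spindle assembly factor, fell from 431 ± 5.33 to 252 ± 3.44 CPM (log2 fold change -0.78), and MAP9, which acts at the spindle, had a log2 fold change of 0.65. Of 14 plus-end and polymerase proteins, 6 rose, 2 fell and 6 did not pass (57.1% changed, near the share of all tested genes), with a median of 0.08, and the examples with the largest change all rose, namely SLAIN1 (0.75), MAPRE2 (0.67) and CLIP2 (0.57). Of 13 genes for proteins that destabilise or sever microtubules, 11 were tested, with 4 raised, 5 lowered and 2 not past the threshold (81.8% changed), and a median of -0.12. KIF2C, a depolymerising kinesin of mitosis, fell from 213 ± 3.79 to 136 ± 1.63 CPM (log2 fold change -0.65), and KATNA1, the catalytic subunit of the severing enzyme katanin, had a log2 fold change of 0.43. The plot of the lists sets these genes beside the tubulin members.

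**Figure D4:**
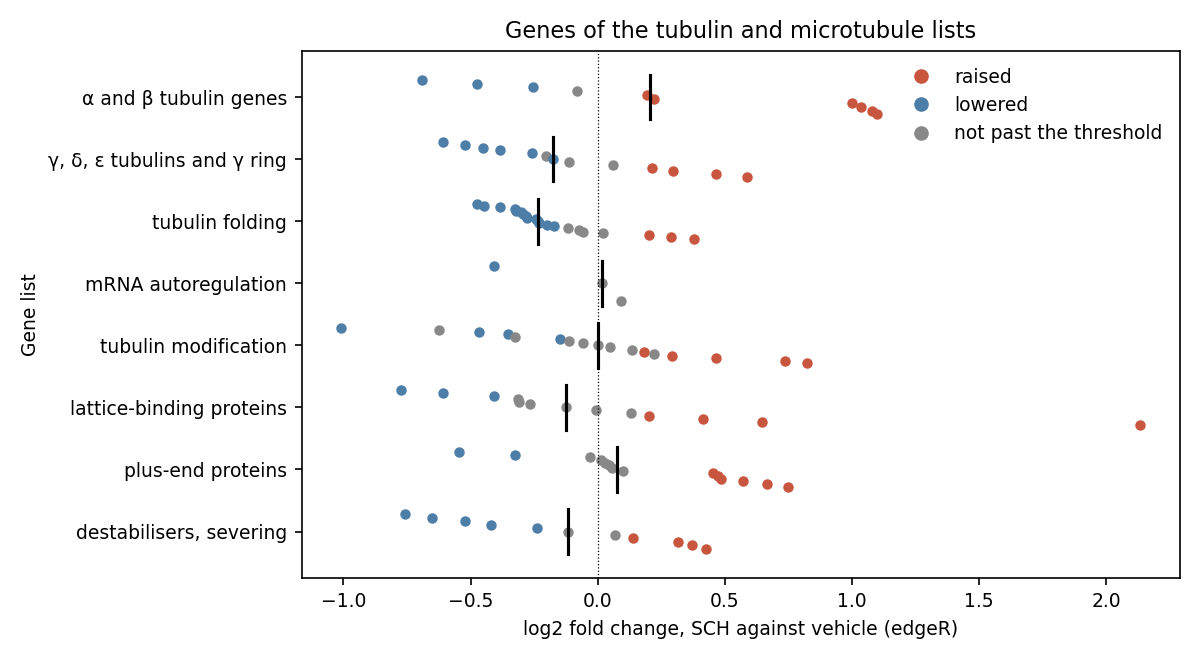
Log2 fold change (edgeR, SCH against vehicle) of each tested gene in the tubulin members and the 7 lists of related genes, with a point for each gene, coloured as raised, lowered or not past the threshold, and a black bar at the median of each list. The folding list lies mostly below 0 (median -0.24), the tubulin members split into a group near 1 and others between -0.69 and 0.22, and MAP1A stands at 2.13.

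The labelled cell line was checked against markers. VIM (261, 269 and 261 FPKM with vehicle, 177, 184 and 179 FPKM with SCH), CD44, KRT8, KRT18 and EGFR were present in every sample, while ESR1 had 1 to 4 counts, PGR 0 or 1 and CDH1 1 to 6, as the line is known to lack them. ERBB2 lay between 6.44 and 8.86 FPKM and EPCAM between 4.2 and 6.83 FPKM. Because several isotypes that rose are known from neurons, 9 neuronal markers were read as well. NEFL, NEFM, DCX, ELAVL4 and INA had no count in any sample, and the summed FPKM of the 9 was 0.261, 0.264 and 0.134 with vehicle and 0.301, 0.265 and 0.281 with SCH. SYP had the most counts summed over the samples, with 11, 11 and 5 against 26, 18 and 22 (log2 fold change 1.29, edgeR adjusted p = 0.00467). It rose, and it was the only one of the 9 that passed the filter on low counts and was tested. SNAP25 had 5, 9 and 4 counts with vehicle and 0, 2 and 3 with SCH, ELAVL3 had 6, 0 and 1 against 0, 2 and 1, and RBFOX3 had 4, 1 and 1 against 4, 6 and 2, none of which was tested at these counts. Of 7 fibroblast markers, 5 had at most 3 counts in each sample, and the summed FPKM, mostly COL1A1, was 0.746, 0.689 and 0.63 against 1.03, 1.05 and 0.911. Of 5 blood cell markers, HBB had no count, CD14 had the highest FPKM summed over the samples, at 0.23 to 0.6 in a sample, and PTPRC had 39, 37 and 34 counts with vehicle and 4, 9 and 3 with SCH. The part of these lists in the tubulin results was not tested.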

How the data were processed

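For the 6 samples, the authors deposited a table of raw gene counts, not normalized, and a table per sample with FPKM values and gene lengths. Checked against each other, the deposited FPKM were the count divided by gene length and by total count, on a scale relative to the usual definition of 0.996 to 1.008 in the vehicle samples and of 0.937 to 0.941 in the SCH samples. The submitters' processing notes name CASAVA 1.8, HISAT2 2.0.5, featureCounts 1.5.0-p3 and DESeq2 1.20.0 and the build GRCh38, without their settings. No 2 samples of a group were copies, and 0 sample columns were left unused.

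The counts were fitted with edgeR 4.0.16 in R 4.3.3 (TMM, filterByExpr, glmQLFit and glmQLFTest, no covariate). Adjusted p-values are Benjamini-Hochberg over all 14736 genes tested, with a threshold of 0.05. Standard errors and 95% intervals were derived from the log2 fold change and the F statistic. The common biological coefficient of variation was 5.17%. For values computed per sample (sums, shares and ratios), an exact permutation test, two-sided, was used. A floor of 3 counts per sample was set in advance and was not derived from the depth. P-values measure the spread between these samples.

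The members, the lists and the tests were chosen with earlier results of these data known. Named were all members, the other genes for alpha and beta tubulin by their counts, the markers by their levels, and from each further list up to 3 genes past the threshold, those with the largest fold changes and a mean count of at least 100. Some items that this rule or the choice of sequences would give are not reported here. TTC5 and CNOT11 were named besides, to complete a list of 3 genes. TBCE is on 2 rows and was left out. On simulated counts for 14558 genes, of which 197 were changed, 171 (86.8%) were recovered and 5% of calls were false. Replicate numbers did not pair the samples (correlations 0.046, -0.022 and 0.022).

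Alternatives were RLE, library size only, upper quartile, no filter, a minimum of 10 counts per sample, DESeq2 1.42.0, limma 3.58.1 on log2(FPKM + 1) and log2(FPKM + 0.1), a replicate block, each replicate left out, a minimum log2 fold change of 1, sums with other tubulin rows, sums without length, and sums of counts per kilobase with TMM factors. Sums with the length of the principal transcript were added after seeing the data. Coding sequences and windows were read from GENCODE 29, in which all 58735 identifiers were found, and promoters from RefSeq with Python 3.11.15. Isotypes were not analysed as proteins here.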

Additional observations from a re-analysis of the deposited data

How the results depend on the processing

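Of the 10 members, 8 had the same direction and call under all 15 alternatives, with log2 fold changes of 1.00 to 1.14 for TUBA1A, -0.51 to -0.37 for TUBA1B, -0.29 to -0.15 for TUBA1C, -0.72 to -0.59 for TUBB, 0.99 to 1.18 for TUBB2A, 0.52 to 1.22 for TUBB2B, 0.53 to 1.27 for TUBB3 and 0.19 to 0.33 for TUBB4B. The lowest values of TUBB2B and TUBB3 came from limma on log2(FPKM + 1), a pseudocount close to their FPKM, which by its construction shrinks the change of low genes. TUBA4A had a log2 fold change of 0.023 (adjusted p = 0.725) with library size only, and TUBB6 missed the threshold with limma at 0.20 on both log2(FPKM + 1) (adjusted p = 0.0545) and log2(FPKM + 0.1) (adjusted p = 0.0521). With library size only, the median of all tested genes moved from -0.0034 to 0.099, the changed genes were 62.6% raised in place of 49.9%, and the pathway lists, with TUBA3D, had 34 raised and 30 lowered in place of 26 and 36. Changed genes numbered 7532 with DESeq2, 7809 to 8489 with each replicate left out, 8814 with library size only and 1292 when the log2 fold change had to reach 1. The replicate numbers did not pair the samples, and with a replicate block 8705 genes changed and 6 members rose and 3 fell. As counts relative to library size, which drops both gene length and the FPKM scale, the summed alpha level had a log2 difference of -0.13 in place of -0.22, while with TMM factors it was -0.23 both with and without length. The summed beta level with TMM factors was -0.17 with length and -0.28 without. Without length, that of the ratio of alpha to beta was 0.044 in place of -0.054. With the length of the principal transcript, chosen after seeing the data, the latter was -0.087. The FPKM sums otherwise lay between -0.25 and -0.20 for alpha and between -0.19 and -0.14 for beta, and 9 or 10 isotype shares did not overlap, though which beta gene led the SCH samples depended on length. The cause of the other moves was not tested. Depth limits TUBB2B and TUBB3, with 27 to 133 counts in a sample.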
